A study of Homo sapiens with 18 samples.

Results

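DNA methylation is written, copied, removed and read by a small set of enzymes, and 10 of their symbols were listed: DNMT1, DNMT3A, DNMT3B, UHRF1, UHRF2, TET1, TET2, TET3, TDG and MBD2. Members were the rows of the count table whose Ensembl identifiers carry these symbols, which gave 9 of the 10 symbols among 63677 rows. UHRF1 was not analysed here. All 9 members were among the 15576 genes that passed the filter on low counts. The counts came from 18 RNA-seq libraries of NCI-H1299, an established human lung cancer line labelled as lung adenocarcinoma and grown in low-glucose DMEM with serum. The 6 groups held 3 libraries each, and no label describes the Ctl cells further. The EV cells received an empty vector. The other groups each received a plasmid for 1 T-box transcription factor: Flag-tagged human TBX2 or TBX4 in pORF, HA-tagged human TBX3 in pCGN, or HA-tagged mouse Tbx5 in pCGN. The plasmids were delivered by transient transfection with a Lipofectamine reagent, so each library mixes cells that took up plasmid with cells that did not. A smaller share of responding cells and a smaller change per cell cannot be told apart in these bulk counts. Nothing in the labels says that the libraries of a group came from separate cultures, so the p-values measure only the spread between these libraries.

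Methyl groups on the cytosine of CpG dinucleotides are set on unmethylated DNA mainly by DNMT3A and DNMT3B, and are copied to the new strand after replication by DNMT1, which the UHRF1 protein guides to hemimethylated sites. The TET enzymes oxidise 5-methylcytosine with oxygen and 2-oxoglutarate, and the glycosylase TDG cuts out the most oxidised forms, so that base excision repair can restore an unmethylated cytosine. Proteins such as MBD2 bind methylated CpG and bring in the NuRD chromatin complex. In lung tumours, as in many others, promoters of some genes gain methylation while much of the genome loses it.

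The members lie on separate chromosomes apart from a pair on chromosome 2. In the GRCh37 build that the authors counted on, DNMT1 (ENSG00000130816) spans chr19:10244018-10341962 on the minus strand, DNMT3A (ENSG00000119772) chr2:25450724-25565459 on the minus strand, and DNMT3B (ENSG00000088305) chr20:31350191-31397165 on the plus strand. UHRF2 (ENSG00000147854) lies at chr9:6413151-6507054 on the plus strand. The TET genes lie on plus strands, TET1 (ENSG00000138336) at chr10:70320094-70454244, TET2 (ENSG00000168769) at chr4:106067032-106200973 and TET3 (ENSG00000187605) at chr2:74212037-74335303. TDG (ENSG00000139372) spans chr12:104359600-104382652 on the plus strand and MBD2 (ENSG00000134046) chr18:51677976-51751039 on the minus strand. All 9 are protein-coding, and their values are reads on annotated exons. Overlaps were taken from a later annotation than the one used for counting. In it, other genes cover 3.44% of the exon bases of TDG, 3.01% of those of TET3 and 0.54% of those of DNMT1. They cover none of the other members. Whether these overlaps were present when the reads were counted was not tested. DNMT3A, UHRF2, TET1 and TDG each have 1 numbered pseudogene in the annotation, which could take or lend reads.

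The bases just before the start site are shown for TET2, TDG and DNMT1, because these were the members called in at least 2 of the 4 TBX comparisons below. The 180 bases come from RefSeq on GRCh38.p14, are written 5′ to 3′ in the direction of the gene, and carry the CpG dinucleotides, the sites these enzymes act on, in capitals. The TET2 stretch is chr4:105145695-105145874, the TDG stretch is chr12:103965692-103965871 and the DNMT1 stretch is chr19:10194954-10195133 on the minus strand.
TET2: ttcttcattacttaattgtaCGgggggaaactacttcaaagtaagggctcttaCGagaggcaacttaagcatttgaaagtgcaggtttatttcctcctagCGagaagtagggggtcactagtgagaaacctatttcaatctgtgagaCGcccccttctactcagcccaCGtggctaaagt
TDG: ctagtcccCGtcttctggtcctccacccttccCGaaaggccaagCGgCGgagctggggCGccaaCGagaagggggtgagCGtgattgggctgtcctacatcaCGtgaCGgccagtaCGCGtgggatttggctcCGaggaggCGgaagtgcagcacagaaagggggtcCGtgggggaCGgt
DNMT1: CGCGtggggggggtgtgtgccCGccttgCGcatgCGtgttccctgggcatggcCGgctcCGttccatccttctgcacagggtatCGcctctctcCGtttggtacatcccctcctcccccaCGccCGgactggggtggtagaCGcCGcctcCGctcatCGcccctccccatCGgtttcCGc
The stretch of TET2 held 5 CpG dinucleotides, against 15 for TDG and 17 for DNMT1. Over the 250 bases before this start, TET2 had 10 CpG dinucleotides, TDG 22 and DNMT1 21, where the median of 35116 RefSeq promoter windows was 11. A second annotated start of TET2 had 34. GGTGTG, the core of the T-box motif, was searched on both strands and occurs in 14.2% of all such windows. It was in the DNMT1 window at 164 to 169 bases upstream, which are letters 12 to 17 of the printed run, and in neither the TDG window nor either TET2 window. Among the other members it was found in 1 of the 2 TET3 windows, 1 of the 3 TET1 windows and 1 of the 6 DNMT3A windows. GCGGGAA, an E2F-type site found in 5.52% of windows, was in the other TET3 window and in none of the other windows of the 9 members.

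The libraries held 7365221 to 11743179 counts. A single gene without a symbol, ENSG00000266658, took 10.7% to 53.5% of them, and values below are CPM, counts relative to library size, scaled by TMM, which discounts such a gene. At the floor of 3 counts a gene would be at 0.255 to 0.407 CPM before that scaling, and the lowest member value was 43 counts, for TET1. The plasmid genes followed the labels: TBX2 had 27704 to 47916 counts, TBX3 135416 to 320890 and TBX4 85197 to 109159 in their own libraries, against at most 56, 34 and 1 in the 6 controls, while TBX5, a human gene counting reads of a mouse cDNA, had 1161 to 1302 against 0. A label contradicts itself, since TBX4 replicate c is numbered with the TBX4 set while its last word is TBX5. It had 85197 counts of TBX4 and 1 of TBX5, and it was kept with TBX4. The members' TBX4 calls on the TMM scale are also given without it, whereas those of markers and lists use it. Of the line's markers, KRT8, KRT18, VIM, CDH2 and FN1 were detected, whereas KRT19, EPCAM, CDH1 and the lung lineage genes NKX2-1, SFTPC and SFTPB had 0 to 9 counts in any library, and the leukocyte, endothelial and fibroblast markers 0 to 8. KRT8 and KRT18, the 2 tested epithelial keratins, were both lower with TBX2 and TBX3 (median log2 fold change -0.68 and -0.43), while KRT8 was lower with TBX4 (-0.23) and higher with TBX5 (0.26). Of the mesenchymal genes, VIM was lower with TBX2 and TBX3, CDH2 was lower and FN1 higher with TBX2, TBX4 and TBX5. The part of these shifts in the member values was not tested.

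In control cells the members fell into an order when set per kilobase of exon (RPKM, from TMM-scaled counts). The length was that of all annotated exons merged, from a later annotation than the one used for counting. The SDs and ranges below cover the spread between libraries and not the uncertainty of that length, on which close ranks between genes depend. DNMT1 was highest at 13.2 ± 0.218 RPKM (SD, n = 6), followed by MBD2 at 7.30 ± 0.790. UHRF2 at 4.76 ± 0.406 and TDG at 4.45 ± 0.213 overlapped between libraries. TET3 at 3.13 ± 0.0698 lay above TET2 at 2.59 ± 0.145 in all 6 controls. DNMT3B followed at 1.62 ± 0.0590, and DNMT3A at 1.28 ± 0.125 and TET1 at 1.20 ± 0.0806 RPKM overlapped. Every neighbouring pair outside these overlaps was separate in range. The order changed in the middle of the scale with the TBX plasmids. With TBX2, the TET2 level of 3.40 to 3.71 RPKM lay above that of TET3, 3.03 to 3.38, and TDG, at 5.83 to 6.28, above UHRF2, at 4.63 to 4.98. With TBX3, TET3 stayed above TET2, at 3.69 to 4.21 against 3.06 to 3.46 RPKM, and with TBX4 and TBX5 this pair overlapped.

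**Figure D1:**
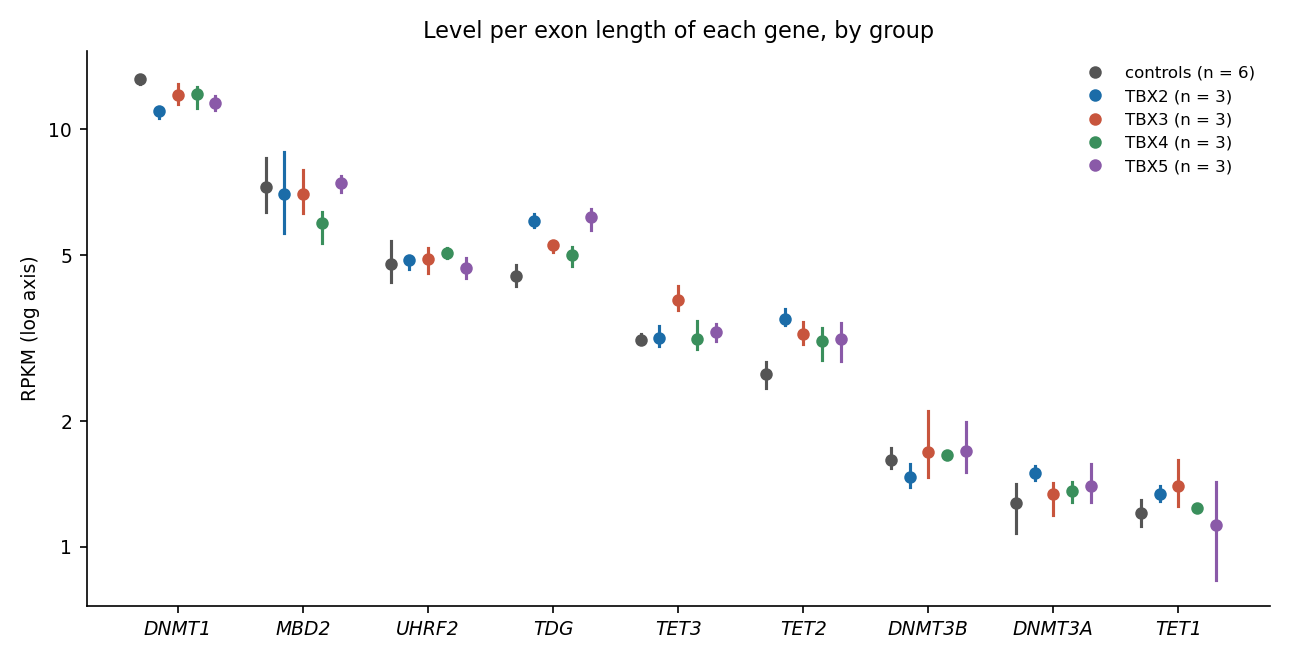
Level of each member in RPKM (log axis), with a point at the group mean and a line from the lowest to the highest library, for the 6 pooled controls and the 3 libraries of each TBX group. DNMT1 was the highest in every group, and the TET2 and TDG points of the TBX groups lie above those of the controls.

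Each TBX group was compared with the 6 control libraries, EV and Ctl pooled, to see which genes differ with each plasmid. The backbone of the empty vector is not known here. Factor, tag and vector therefore cannot be told apart in these comparisons. TET2 rose with all 4 plasmids, by 20.5% to 36.3%, although its sign with TBX5 turned when libraries were scaled by their totals. TDG rose with TBX2, TBX3 and TBX5, by 18.8% to 37.5%. DNMT1 fell with TBX2, to 0.838 of its control level, and with TBX5, to 0.872. TET3 rose with TBX3, DNMT3A rose with TBX2, and MBD2 fell with TBX4. DNMT3B, UHRF2 and TET1 passed the test in none of the 4 comparisons. The quasi-likelihood F test of edgeR was used, its p-values were adjusted by Benjamini-Hochberg over the 15576 genes, and a gene was called at an adjusted p under 0.1. The 4 comparisons share their 6 control libraries and are not independent of each other.

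With TBX2, 3 of the 9 members were called higher, where 17% of all tested genes were, and 1 was called lower, against 15.6% of all genes. With TBX3, 3 were higher, against 8.47% of genes, and 0 lower, against 6.4%. In that comparison 1 member was lower at an unadjusted p under 0.05, which was DNMT1, and DESeq2 called it lower. With TBX4, 1 member was higher, against 6.98% of genes, and 1 lower, against 6.07%. With TBX5, 2 were higher, against 6.56%, and 1 lower, against 6.12%. TET2 was the 1 member called higher in all 4 comparisons, as were 1.21% of all genes, and 0 members were called lower in all 4, against 1.24% of genes. Over the 9 members the median log2 fold change was 0.03, 0.06, 0.04 and 0.04 in the order TBX2, TBX3, TBX4, TBX5, beside -0.00, -0.00, -0.01 and -0.00 over all genes.

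**Figure D2:**
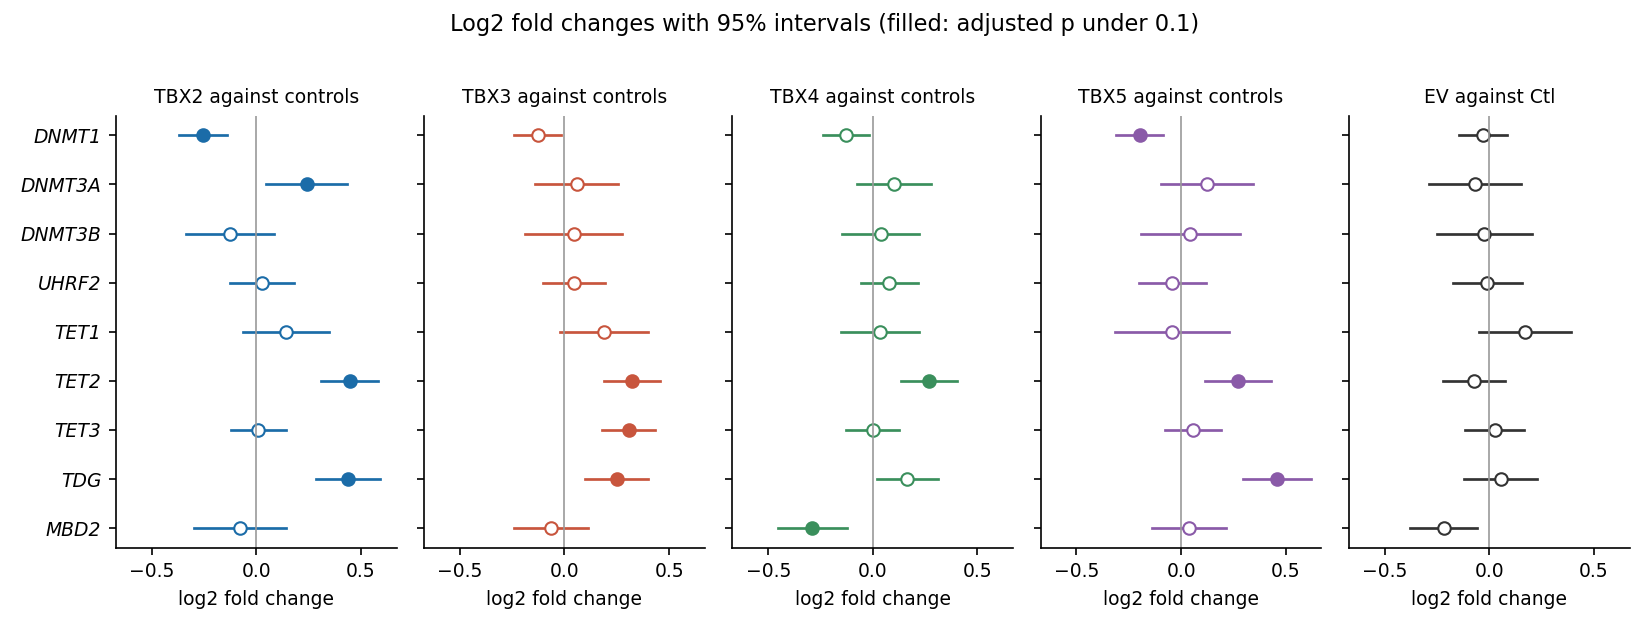
Log2 fold changes of the 9 members (rows) with 95% intervals from edgeR, in the 4 TBX comparisons with the controls and in EV against Ctl. Filled points have an adjusted p under 0.1. TET2 is filled in the 4 TBX panels, and no point is filled in EV against Ctl. Scaled by library totals, TET2 with TBX5 and DNMT1 with TBX4 change sign.

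DNMT1, the maintenance methyltransferase, was the steadiest member in the control cells, at 203.4 ± 3.36 CPM (SD, n = 6). The 6 controls lay at 197.2 CPM at the lowest, 204.0 at the median and 206.6 at the highest. With TBX2 the libraries had 173.8, 163.7 and 174.1 CPM, and with TBX5 171.0, 176.6 and 185.1. All 6 of these libraries were below all 6 controls. With TBX3 DNMT1 was at 197.9, 184.3 and 176.6 CPM, and with TBX4 at 173.1, 192.5 and 194.4. The TBX4 libraries were also below all controls, whereas TBX3 replicate a reached into their range. The log2 fold change was -0.25 with TBX2 (SE 0.0555, adjusted p = 0.00150) and -0.20 with TBX5 (SE 0.0543, adjusted p = 0.0253). With TBX3 and TBX4 it was -0.13 in both, with adjusted p-values of 0.140 and 0.139, and with TBX4 it was -0.15 (adjusted p = 0.155) without replicate c. The TBX3 difference was called by DESeq2 (adjusted p = 0.0882), with the share of ENSG00000266658 as a covariate (0.0733) and by library totals without that gene (0.0392), which also called the TBX4 difference (0.0870), and against the EV libraries alone the TBX5 difference was not called (adjusted p = 0.108).

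Of a list of 15 replication and proliferation genes, 11 were called lower with TBX2, where 15.6% of all tested genes were, and 8 with TBX5, against 6.12%. With TBX4 3 of the 15 were called lower, against 6.07% of all genes, and with TBX3 1, against 6.4%, a share near that of all genes. None of the 15 was called higher in these 4 comparisons. The median log2 fold change of the list was -0.26, -0.18, -0.09 and -0.08 in that order of groups. Their summed level was 2551 to 2784 CPM in the controls, 2220 to 2234 with TBX2 and 2278 to 2427 with TBX5. It was 2436 to 2514 CPM with TBX4 and 2506 to 2523 with TBX3, so the TBX ranges were all below the controls. The controls themselves were apart, with EV at 2551 to 2625 CPM below Ctl at 2681 to 2784. The TBX3 and TBX4 ranges lay closer to EV than to Ctl. MCM7 and MCM6, subunits of the replicative helicase, had log2 fold changes of -0.44 and -0.32 with TBX2, both called. The part of replication in the DNMT1 difference was not tested.

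DNMT3A and DNMT3B, the methyltransferases that act on unmethylated DNA, had far fewer counts. DNMT3A had 14.8, 17.4 and 19.5 CPM as the lowest, median and highest control, and 21.5, 19.9 and 20.6 with TBX2. The TBX2 libraries were above all controls. DNMT3A lay at 16.4 to 19.6 CPM with TBX3, 17.6 to 19.7 with TBX4 and 17.6 to 21.8 with TBX5, all within or overlapping the control range. The TBX2 log2 fold change was 0.24 (SE 0.0932, adjusted p = 0.0610), and the call was lost without TBX2 replicate a (adjusted p = 0.209), TBX2 replicate c (0.108) or EV replicate c (0.133). It was also lost with DESeq2 (adjusted p = 0.135), without a filter (0.217) and against the Ctl libraries alone (0.160). DNMT3B lay at 10.6 to 11.8 CPM in the controls, with a median of 11.1. It was 9.55 to 10.8 CPM for TBX2, 10.1 to 14.5 for TBX3, 11.2 to 11.6 for TBX4 and 10.4 to 13.6 for TBX5. All 4 ranges overlapped the controls, and the widest 95% interval, with TBX5, spanned log2 fold changes of -0.19 to 0.28. That interval was computed from F and may be too narrow. In edgeR's test F was 0.156 with both TBX3 and TBX5, while p was 0.697 with TBX3 and 0.742 with TBX5. DNMT1 made up 87.6% ± 0.517 of the counts of the 3 methyltransferase genes in the controls (SD, n = 6). The share was 84.7% ± 0.527 for TBX2, 86.1% ± 0.799 for TBX3, 86.1% ± 0.387 for TBX4 and 85.2% ± 1.71 for TBX5 (n = 3 each), below the control range in all 12 TBX libraries.

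UHRF2, a relative of UHRF1 that also binds modified cytosine, was called in no comparison. Its controls ranged from 42.7 to 53.5 CPM with a median of 47.0, and the 12 TBX libraries from 43.8 to 51.6 lay inside that range. The log2 fold changes were 0.03, 0.05, 0.08 and -0.04 with TBX2, TBX3, TBX4 and TBX5, with standard errors of 0.0664 to 0.0769. The 95% intervals together reached from -0.20 to 0.21.

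TET2, a dioxygenase often mutated in blood cancers, had no overlap between its 12 TBX and 6 control values. The controls lay at 39.6, 42.6 and 45.7 CPM at the lowest, median and highest. With TBX2, TET2 had 56.4, 61.2 and 56.0 CPM, with TBX3 57.0, 50.4 and 52.4. With TBX4 it had 54.9, 53.0 and 46.1 CPM, and with TBX5 45.8, 53.2 and 56.8. The TBX2 libraries stood farthest from the controls, while TBX5 replicate a (45.79 CPM) was next to Ctl replicate a (45.74 CPM). The log2 fold changes were 0.45 (SE 0.0659, adjusted p = 2.41e-05), 0.32 (SE 0.0646, adjusted p = 0.00184), 0.27 (SE 0.0649, adjusted p = 0.00923) and 0.27 (SE 0.0757, adjusted p = 0.0279). The TBX5 call was lost without TBX5 replicate b (adjusted p = 0.104), without TBX5 replicate c (0.190) and against the Ctl libraries alone (0.158). Without TBX4 replicate c, the TBX4 change was 0.34 (adjusted p = 0.00330).

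TET3, the TET enzyme best known from the zygote, was higher with TBX3. Its controls were the tightest of the TET genes, at 39.6, 40.4 and 41.9 CPM for the lowest, median and highest. The TBX3 libraries had 49.0, 54.4 and 47.8 CPM, all above the controls. The ranges were 39.3 to 43.7 CPM with TBX2, 38.6 to 44.9 with TBX4 and 40.4 to 44.2 with TBX5, which overlapped them. The log2 fold change with TBX3 was 0.31 (SE 0.0613, adjusted p = 0.00184), against 0.01, -0.00 and 0.06 with TBX2, TBX4 and TBX5. TET1, a TET enzyme with a CpG-binding CXXC domain that is abundant in embryonic stem cells, had few counts, like DNMT3B, at 10.8 to 12.4 CPM in the controls. It had 12.3 to 13.4 CPM with TBX2, 12.05 to 15.49 with TBX3 and 11.7 to 12.0 with TBX4. TBX5 spread the most, with 13.7, 10.9 and 7.98 CPM in replicates a, b and c. The log2 fold changes of TET1 were 0.14, 0.19, 0.04 and -0.04, with standard errors of 0.0912 to 0.132. At 43 to 190 counts per library, counting error alone was 7.25% to 15.2% of a TET1 value, against 1.80% to 3.35% for DNMT1. TET2 made up 45.0% ± 1.88 of the counts of the 3 TET genes in the controls and 51.8% ± 2.23 with TBX2, above the control range. In the other TBX groups the share overlapped the controls.

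TDG, the glycosylase downstream of the TET enzymes, moved in the same direction as TET2. The controls had 20.6, 21.6 and 23.1 CPM as lowest, median and highest. TDG was at 29.1, 30.7 and 28.5 CPM with TBX2 and at 28.1, 31.5 and 31.0 with TBX5. It was at 26.4, 24.8 and 26.1 CPM with TBX3 and at 24.8, 25.5 and 23.0 with TBX4. Only TBX4 replicate c came down into the range of the controls. The log2 fold change was 0.44 with TBX2 (SE 0.0734, adjusted p = 0.000101), 0.46 with TBX5 (SE 0.0784, adjusted p = 0.000624) and 0.25 with TBX3 (SE 0.0726, adjusted p = 0.0283). With TBX4 it was 0.17 (SE 0.0707, adjusted p = 0.156), and 0.21 (adjusted p = 0.135) without replicate c. The TBX3 call was lost without TBX3 replicate c (adjusted p = 0.128), without a filter (0.140), against the EV libraries alone (0.109), and when scaled by library totals with (0.999) or without (0.118) the most counted gene.

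MBD2, the reader, was lower with TBX4. Its controls had 36.1, 41.6 and 48.5 CPM as lowest, median and highest, and the TBX4 libraries 36.1, 30.3 and 35.6 CPM. These were all below the controls, replicate a by less than 0.1 CPM. The other ranges, 32.2 to 50.3 CPM with TBX2, 36.0 to 45.5 with TBX3 and 40.16 to 44.02 with TBX5, overlapped the controls. The log2 fold change with TBX4 was -0.29 (SE 0.0805, adjusted p = 0.0236), and -0.32 (adjusted p = 0.0415) without TBX4 replicate c. It was not called without TBX4 replicate b (-0.21, adjusted p = 0.214) or against the EV libraries alone (-0.18, adjusted p = 0.212). The TBX4 libraries also had the lowest median share of ENSG00000266658, 14.8% against 33.6% in the controls. With that share as a covariate, the MBD2 change with TBX4 was -0.13 (adjusted p = 0.535). With TBX2, MBD2 was not called, and without TBX2 replicate c, the library at 50.3 CPM, it was called at -0.26 (adjusted p = 0.0757).

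**Figure D3:**
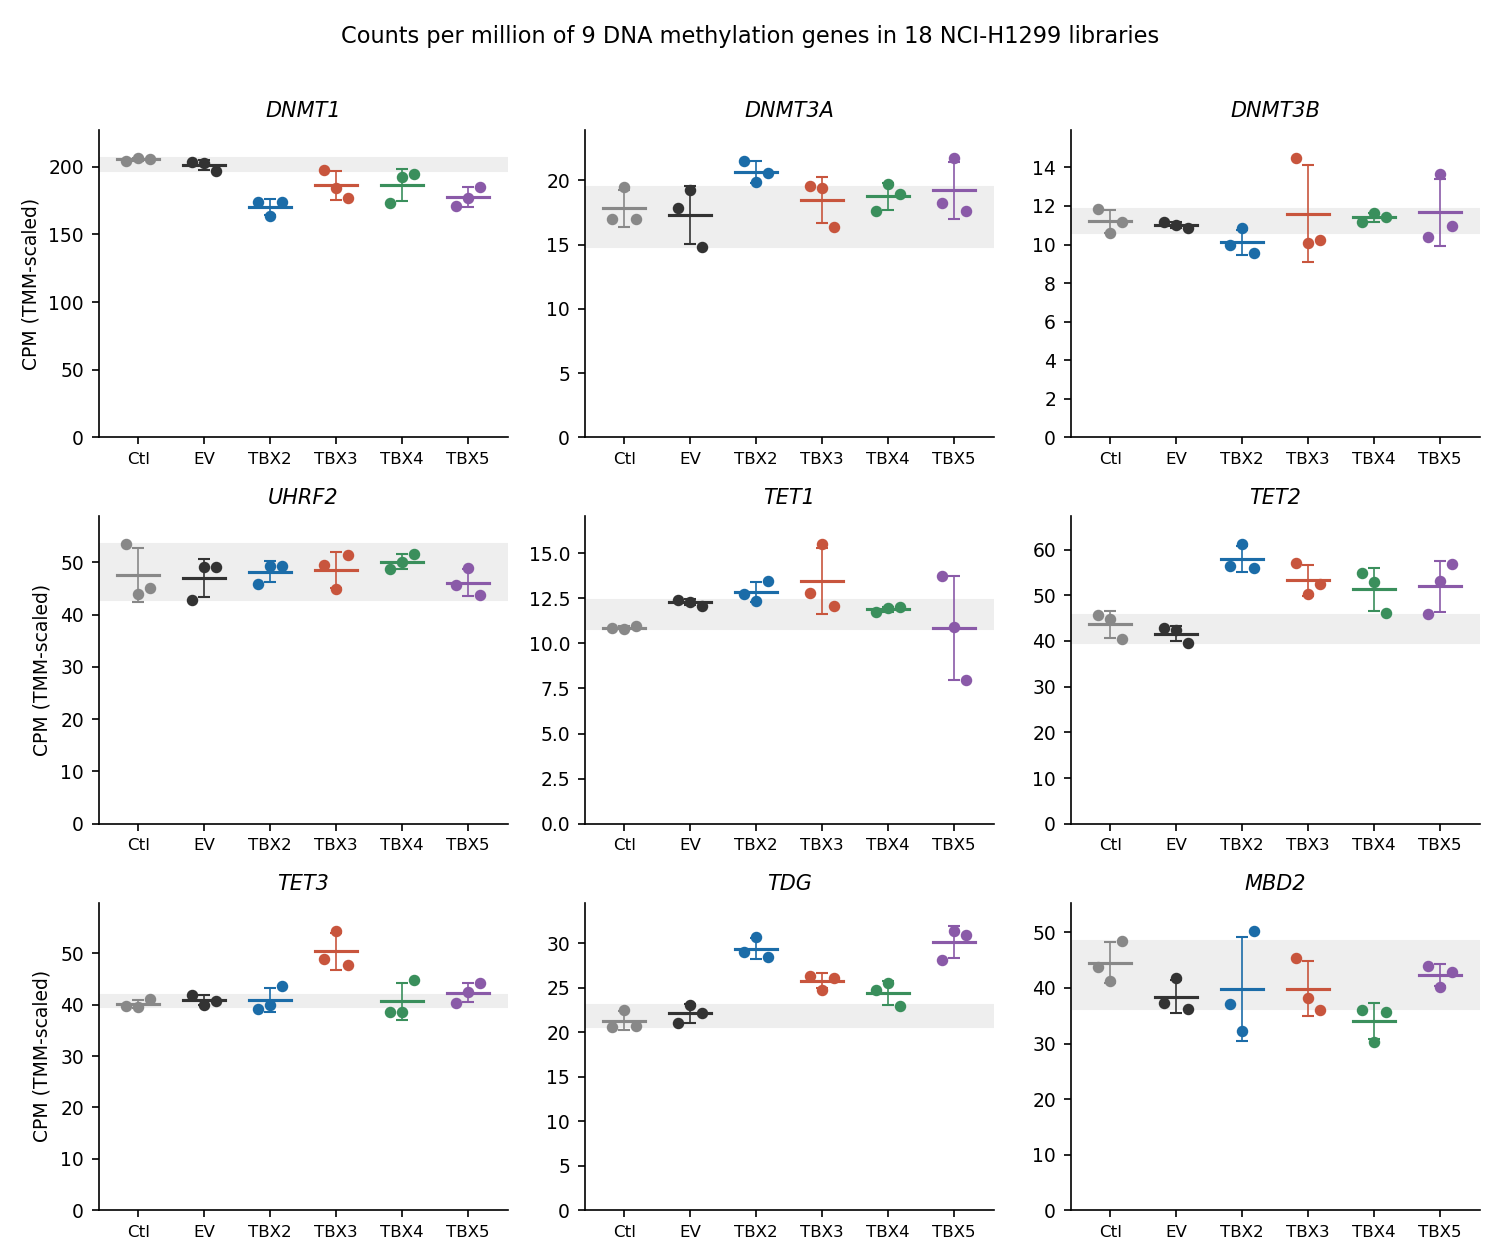
CPM (TMM-scaled) of each member in each of the 18 libraries, with the mean (line) and SD (error bars) of each group of 3 and the range of the 6 controls in grey. The 12 TBX points of TET2 lie above the grey range and those of DNMT1 lie below it except in TBX3 replicate a, while UHRF2 lies inside it. Scaled by library totals, the mean changes of TET2 with TBX5 and DNMT1 with TBX4 have the other sign.

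These directions are relative to the TMM scaling. Scaled by library totals instead, the median log2 change of all genes shifted to 0.25 with TBX4, -0.31 with TBX5 and -0.08 with TBX3, so that TET2 with TBX5 turned to -0.05 and DNMT1 with TBX4 to 0.13. Relative to the median of all genes, the same values were 0.26 for TET2 and -0.12 for DNMT1. By library totals 0 members were called with TBX2, TBX3 and TBX5, where edgeR called 1056, 35 and 93 genes in all. With TBX2 the median of all genes was 0.01, and TET2, TDG, DNMT3A and DNMT1 had 0.46, 0.45, 0.26 and -0.24. These were near their TMM values of 0.45, 0.44, 0.24 and -0.25, while the adjusted p-values of edgeR's test were 0.135, 0.184, 0.602 and 0.601. With TBX4 TET2 and TDG were called higher and 0 members lower, MBD2 being at -0.02 (-0.27 relative to the median). Library totals without ENSG00000266658 gave 4, 3, 3 and 3 called members with TBX2, TBX3, TBX4 and TBX5. The medians of all genes were then -0.02, -0.06, -0.03 and -0.03.

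The ratio of TET2 to DNMT1 counts within a library does not depend on how libraries are scaled. It was 0.209 ± 0.0101 in the controls, with a range of 0.196 to 0.224 over the 6 libraries. It was 0.340 ± 0.0293 in the TBX2 libraries (0.322 to 0.374) and 0.286 ± 0.0118 in the TBX3 libraries (0.273 to 0.297). In those of TBX4 it was 0.277 ± 0.0402 (0.237 to 0.317) and in those of TBX5 0.292 ± 0.0210 (0.268 to 0.307; SD, n = 3 each). All 12 TBX libraries were above all 6 controls, with mean ratios 1.62, 1.37, 1.32 and 1.39 times that of the controls (1.41 times for TBX4 without replicate c). Per base of exon the control ratio was 0.196, since the exons of TET2 cover 16474 bases and those of DNMT1 15379. The ratio of TDG to DNMT1 counts was 0.101 to 0.114 in the controls, 0.164 to 0.188 with TBX2, 0.133 to 0.148 with TBX3, 0.118 to 0.143 with TBX4 and 0.164 to 0.178 with TBX5. Summed over the 3 TET and the 3 DNMT genes, the ratio was 0.395 to 0.417 in the controls and 0.528 to 0.584, 0.512 to 0.563, 0.458 to 0.521 and 0.500 to 0.510 with TBX2, TBX3, TBX4 and TBX5. These ratios describe members chosen with earlier results known and carry no p.

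**Figure D4:**
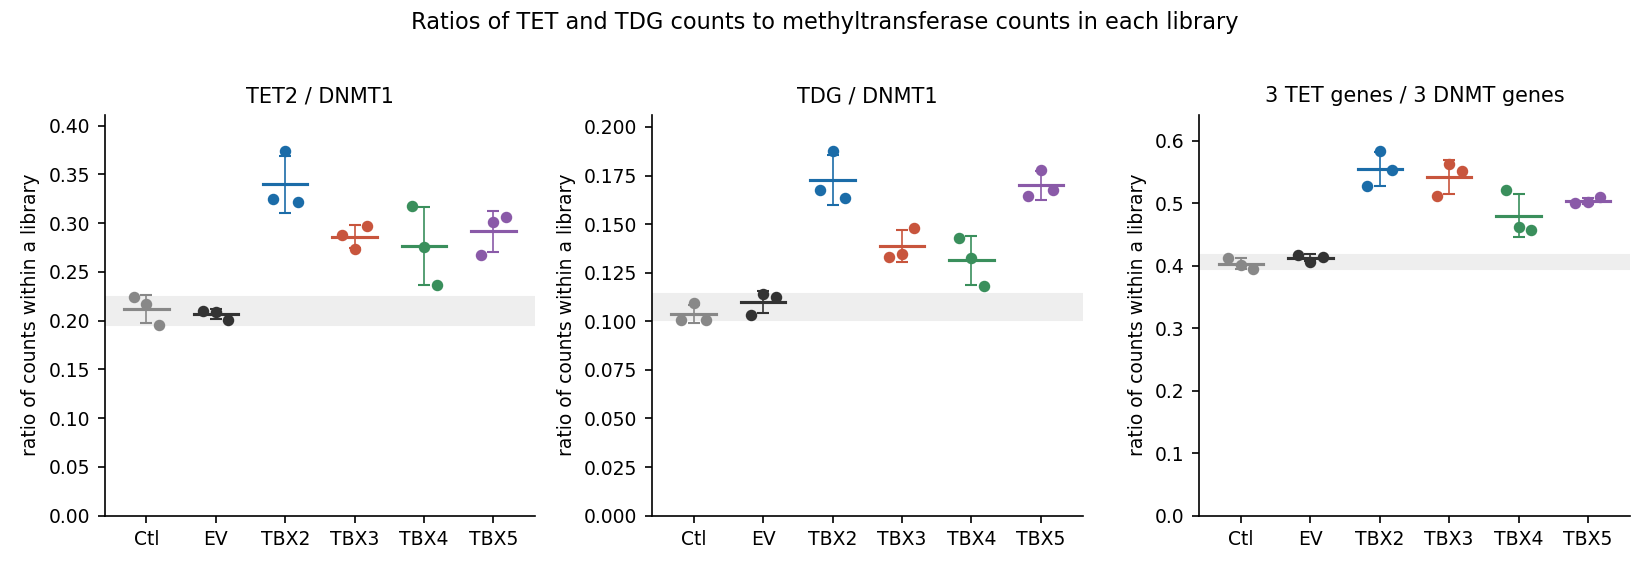
Ratio of counts within each library for TET2 over DNMT1, TDG over DNMT1 and the 3 TET genes over the 3 DNMT genes, with group means (lines), SD (error bars) and the range of the 6 controls in grey. In all 3 panels the 12 TBX libraries lie above the grey range, the nearest being the lowest TBX4 library.

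The empty vector was compared with Ctl to see whether both kinds of control differ in these genes. By edgeR's test 0 of the 9 members were called, where 0.385% of all genes were, and DESeq2 also called 0. At an unadjusted p under 0.05 there was 1, MBD2, at 43.8, 41.3 and 48.5 CPM in Ctl and 37.4, 41.8 and 36.1 in EV. These ranges overlapped, with a log2 fold change of -0.22 (SE 0.0772, adjusted p = 0.377). TET1 was at 10.85, 10.79 and 10.97 CPM in Ctl and at 12.4, 12.3 and 12.1 in EV, so that all EV libraries were above all Ctl libraries, with a change of 0.17 (adjusted p = 0.659). DNMT1 was at 203.7, 202.6 and 197.2 CPM in EV, below all Ctl libraries (204.4, 206.6 and 205.7). The log2 fold changes of DNMT1 and TET2 were -0.03 and -0.07, with adjusted p-values of 0.912 and 0.803.

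Whether the 4 TBX groups differ from each other was tested in 1 fit of all 18 libraries, without using the controls in the contrast. Between TBX2 or TBX4 (Flag, pORF) and TBX3 or TBX5 (HA, pCGN), factor, tag and vector cannot be told apart. For the mouse Tbx5, factor and species cannot be told apart either. Among the 4 TBX groups, 2 of the 9 members differed, TET3 (adjusted p = 0.00958) and TDG (adjusted p = 0.0177), where 22.7% of all genes did. DNMT1 (0.328), TET2 (0.320) and MBD2 (0.186) were not called, and a p that misses the threshold does not show that their levels were alike. Without TBX4 replicate c the values of TET3 and TDG were 0.00329 and 0.0600. The test called 3 members without TBX5 replicate a, which added TET1 (0.0938), and without TBX2 replicate b or c, which added MBD2 (0.0630 and 0.0548).

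By pairs of TBX groups, TET3 was 22.9% higher with TBX3 than with TBX2 (log2 difference 0.30, SE 0.0761, adjusted p = 0.00983), the 1 member called in a pair where 15.5% of genes were. It was lower with TBX4 than with TBX3 by the same step (-0.30, SE 0.0732, adjusted p = 0.0108), again the 1 member called, against 9.98% of genes, and by library totals this difference was 0.04 (-0.30 relative to the median of all genes). Without TBX4 replicate c this difference was -0.38 (adjusted p = 0.00461). TET3 was also lower with TBX5 than with TBX3 (-0.25, SE 0.0783, adjusted p = 0.0637), the 1 call where 7.41% of genes were called. This last call was lost without TBX3 replicate b (adjusted p = 0.237), TBX5 replicate a (0.225) or TBX5 replicate b (0.120). It was also lost with DESeq2 (0.129), without a filter (0.105) and by library totals with (0.781) or without (0.118) the most counted gene, so that it was kept in 7 of 14 alternatives. TDG was lower with TBX4 than with TBX2 (-0.27, SE 0.0774, adjusted p = 0.0274), 1 of 9 members where 12.3% of genes were called. That call was lost without TBX2 replicate b (adjusted p = 0.107), without TBX4 replicate c (0.106) and without a filter (0.194). TDG differed between TBX3 and TBX2 by -0.19 (adjusted p = 0.130) and between TBX5 and TBX3 by 0.21 (adjusted p = 0.154), which were not called. Between TBX5 and TBX2, edgeR and DESeq2 called 0 members, and 0 had an unadjusted p under 0.05, where 12.1% of all genes were called. Between TBX5 and TBX4 both tools called 0, where 0.539% of genes were called, and TDG and MBD2 had an unadjusted p under 0.05. By library totals, which shifted the median of all genes by -0.57 in this pair, edgeR called 6518 genes and 4 members, DNMT1, UHRF2, TET1 and TET2, all lower with TBX5.

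Across the 18 libraries, TET2 and TDG had the highest correlation of any pair of members (Pearson's r of log2 CPM 0.81, and 0.69 after removing group means). DNMT1 and TDG had the lowest (-0.81), and TET2 and DNMT1 were at -0.71. Within groups these were -0.00 and 0.08. The points share group structure and library scaling, and the values are a description. For the other members the closest partner was weaker, from 0.55 for DNMT3A with TDG to 0.23 for MBD2 with DNMT1. DNMT3B and UHRF2 were closest to DNMT1 and DNMT3B, at 0.30 and 0.27, and TET1 and TET3 were closest to each other, at 0.30. Among all tested genes, those most like DNMT1 were OGDH (0.93), SHMT1 (0.90) and WDR62 (0.89), and those most like TET2 were POU2F1 (0.93), KDM5C (0.91) and PARP8 (0.89), each over 18 libraries.

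Genes that work beside the members were taken from 7 further lists, chosen with earlier results of these data known. Partners of the methyltransferases, 11 of 13 tested, were called lower only, by 8 genes for TBX2, 3 for TBX3, 4 for TBX4 and 5 for TBX5, beside 15.6%, 6.4%, 6.07% and 6.12% of all tested genes, and their median log2 fold changes were -0.24, -0.09, -0.16 and -0.17. PAF1, which stands on this list but is a subunit of a transcription elongation complex, had -0.61, -0.09, -0.41 and -0.43, with the TBX3 value not called. It is thus among the lower genes counted for TBX2, TBX4 and TBX5. CDCA7L, a relative of the HELLS partner CDCA7, had -0.54, -0.26, -0.16 and -0.40, with the TBX4 value not called. PCNA stands on this list and on the replication list. The TBX4 counts of the lists use all 3 libraries, and all list values are on the TMM scale and were not recomputed by library totals, whose shifts of the median gene are given above.

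Partners of the TET enzymes, 8 of 12 tested, showed no single direction. They had 2 higher and 1 lower with TBX2, 2 higher with TBX3, 1 lower with TBX4 and 1 of each with TBX5. Their medians were 0.21, 0.23, -0.04 and -0.01. Beside these counts and those of the next list, 17%, 8.47%, 6.98% and 6.56% of all tested genes were called higher with TBX2, TBX3, TBX4 and TBX5. The shares called lower were 15.6%, 6.4%, 6.07% and 6.12%. GADD45A, a stress-induced gene tied to demethylation, rose with TBX2 (log2 fold change 1.09) and TBX3 (0.49) and had -0.04 and -0.15 with TBX4 and TBX5. CXXC5, which carries a CpG-binding domain like that of TET1, rose with TBX5 (1.77) from a mean of 0.441 CPM in the controls, at 3 to 12 counts in any library. The base excision list, 13 genes all tested, had 2 higher and 4 lower with TBX2, 2 lower with TBX3, 1 higher and 2 lower with TBX4 and 3 lower with TBX5, with medians of -0.15, -0.06, -0.04 and -0.10. TDP1, which clears DNA ends blocked by topoisomerase, fell in all 4 comparisons, by 0.51, 0.26, 0.22 and 0.23 on the log2 scale. On the same list EV was lower than Ctl for 1 gene, APEX1 (-0.46), named here after its value was seen, and no gene of the other 7 lists was called in EV against Ctl.

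Other methyl-CpG binding genes, 9 of 9 tested, had 2 higher and 2 lower with TBX2, 2 higher with TBX3, 1 lower with TBX4 and 1 higher with TBX5, and medians of 0.00, 0.10, -0.09 and -0.06. Beside these counts and those of NuRD genes, 17%, 8.47%, 6.98% and 6.56% of all tested genes were called higher in the same order. The shares called lower were 15.6%, 6.4%, 6.07% and 6.12%. MBD6 rose with TBX2 (0.58), TBX3 (0.44) and TBX5 (0.33) and had 0.08 with TBX4. MBD3, the MBD2 relative in NuRD, fell with TBX2 (-0.36) and TBX4 (-0.26) and had -0.22 and -0.23 with TBX3 and TBX5, which were not called. NuRD genes, 14 of 14 tested and MBD3 among them, had 2 higher and 5 lower with TBX2, 1 of each with TBX3, 1 higher and 2 lower with TBX4 and 1 of each with TBX5, and medians of -0.10, -0.01, -0.08 and -0.04. CHD5, a NuRD helicase best known from neurons, rose with TBX4 (1.53) and TBX5 (2.52) from 0.570 CPM in the controls, and had 3 to 26 counts in any library.

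Genes for the supply of methyl donor and 2-oxoglutarate, 13 of 14 tested, had 2 higher and 2 lower with TBX2, 2 lower with TBX3, 3 lower with TBX4 and 3 lower with TBX5, and medians of -0.15, -0.14, 0.02 and -0.02. Beside these counts and those of the next list, 17%, 8.47%, 6.98% and 6.56% of all tested genes were called higher in the same order. The shares called lower were 15.6%, 6.4%, 6.07% and 6.12%. AHCY, which clears the S-adenosylhomocysteine that methyltransferases leave behind, fell in all 4 comparisons, by 0.47, 0.32, 0.19 and 0.26 on the log2 scale. OGDH, which consumes 2-oxoglutarate in the citric acid cycle, fell in all 4 by 0.55, 0.21, 0.29 and 0.45. A further list held 23 germline and cancer-testis genes known from other work to be kept silent by DNA methylation. Only 7 had enough counts to be tested. Those 7 were already expressed in the controls, from a mean of 1.47 CPM for SYCP3 to 238 for MAGEA4. Their changes therefore do not describe silenced genes. These had 2 higher with TBX2, 1 lower with TBX3, 1 higher with TBX4 and 0 with TBX5, and medians of -0.09, -0.08, -0.03 and -0.02. PEG3, an imprinted gene, rose by 0.25 on the log2 scale with both TBX2 and TBX4. MAGEA4 fell by 0.23 with TBX3 and had -0.09, -0.03 and -0.08 with the other factors. Methylation itself was not measured in these libraries.

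**Figure D5:**
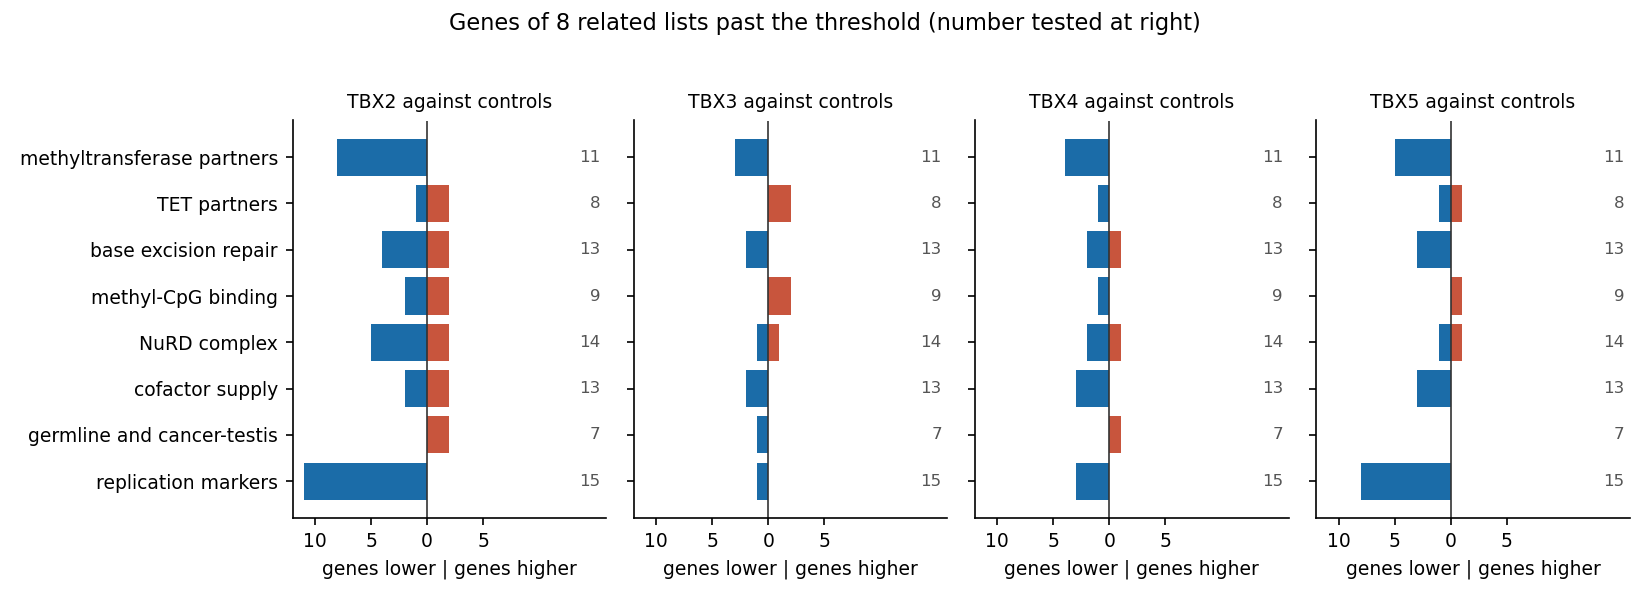
Number of genes called lower (left of 0) and higher (right of 0) in 8 related lists, in the 4 TBX comparisons, with the number of tested genes at the right of each panel. The longest bar is that of the lower replication genes with TBX2 (11 of 15), followed by the same list with TBX5 (8 of 15) and the methyltransferase partners with TBX2 (8 of 11). Of all tested genes, 15.6% were called lower with TBX2 and 6.12% with TBX5.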

How the data were processed

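RNA-seq read counts of 18 NCI-H1299 libraries were taken as deposited. The authors mapped read pairs with STAR 2.3.0 on GRCh37 and deposited raw counts per gene, made by featureCounts at its default settings, which ignore strand. Symbols, exon lengths and overlaps came from a GENCODE annotation on the same build that is later than the one the authors counted on. Promoter sequences came from RefSeq on GRCh38.p14. The filter kept the 15576 genes whose count exceeded 5 in 10 or more libraries. Each TBX group was compared with the 6 pooled control libraries, EV with Ctl, and the 4 TBX groups with each other, by edgeR 4.0.16 (quasi-likelihood F test, TMM scaling, R 4.3.3) with Benjamini-Hochberg adjustment over all tested genes. A gene was called at an adjusted p under 0.1, and the standard error was taken as the log2 fold change divided by the square root of F. DESeq2 1.42.0, other scalings and filters, each kind of control alone, a replicate block and each library left out in turn were tried as alternatives. A covariate for the share that ENSG00000266658 took was added after seeing the data. The fits were tested on simulated data. CPM were log2-transformed with a prior count of 2 for correlations. Library totals were 7365221 to 11743179 counts, and floors and counting errors cover counting error only.

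The members and lists were chosen with earlier results of these data known. All members were named. From each list, every gene called in the same direction in all 4 TBX comparisons was named, or otherwise the 2 genes with the largest mean absolute change among those called at least once. For DNMT1 and TET2 the 3 genes of highest correlation were named, and for each member its closest other member. Groups came from the sample labels, and TBX4 replicate c was placed by its number.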

Additional observations from a re-analysis of the deposited data

Results flagged for a closer look

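Among the 4 TBX groups, 2 of the 9 members differed by a test of the difference itself. Of all tested genes 22.7% did, a share near that of the members. TET3 had an adjusted p of 0.00958 and TDG of 0.0177 (edgeR, Benjamini-Hochberg adjustment over all tested genes). TET3 was highest in the TBX3 libraries, at 50.4 ± 3.55 CPM against 40.7 to 42.4 CPM in the means of the other TBX groups. TDG was at 29.4 ± 1.14 CPM with TBX2, 30.2 ± 1.82 with TBX5, 25.8 ± 0.845 with TBX3 and 24.4 ± 1.31 with TBX4 (SD, n = 3 each). By pairs, TDG was called between TBX4 and TBX2 (adjusted p = 0.0274), a call lost without TBX2 replicate b (0.107) or TBX4 replicate c (0.106), and in no other pair. In the 9 sets of 6 control values no library stood apart by Dixon's criterion, which chance would pass in about 1 of 20 sets.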

How the results depend on the processing

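Of 846 alternatives of the members' fold changes against the controls and of EV against Ctl, 812 kept the side of the threshold with no called value turning sign, 27 lost a call, 6 gained a call and 1 called value turned its sign. Among the 812, 52 changed sign without being called in either fit. TET2 was higher than the controls in 79 of 80 alternatives and called in 74. Scaling by library totals gave 0 called members with TBX2, TBX3 and TBX5 and 0 among the 4 TBX groups, turned TET2 with TBX5 to -0.053 and turned TET3 between TBX4 and TBX3 to 0.042. Leaving ENSG00000266658 out of the totals gave 4, 3, 3 and 3 called members with TBX2, TBX3, TBX4 and TBX5, and 2 among the 4 TBX groups. With TBX4 the number of called members was 1 against the EV libraries alone and 1 with the share of ENSG00000266658 as a covariate. Without a filter on low counts 1 member was called among the 4 TBX groups. The cause of these changes was not tested. Taking all 3 TET over all 3 DNMT genes in place of TET2 over DNMT1 gave ratios of 1.36, 1.33, 1.18 and 1.24 relative to the controls for TBX2, TBX3, TBX4 and TBX5.

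When single libraries were left out, the number of called members was 3 to 4 with TBX2, 2 to 3 with TBX3, 1 to 2 with TBX4, 2 to 3 with TBX5, 0 to 0 in EV against Ctl and 2 to 3 among the 4 TBX groups. The ratio of TET2 to DNMT1 relative to the controls was 1.54 to 1.67, 1.34 to 1.395, 1.22 to 1.41 and 1.36 to 1.45 with TBX2, TBX3, TBX4 and TBX5. The libraries carry letters a, b and c in every group, but deviations from the group means did not pair by letter (mean correlation 0.0004 over 45 same-letter pairs, with 6 of 18 libraries closest to their own letter). A fit with the replicate letter as a block called 4, 3, 2, 3, 0 and 2 members in the same order of comparisons, the same numbers as without it. Depth limits TET1, DNMT3B and DNMT3A most, the least counted members.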
